A study of Mus musculus with 12 samples.

Results

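The CXCR3 ligands and the interferon-gamma axis were followed through 10 genes: the chemokines Cxcl9, Cxcl10 and Cxcl11, their receptor Cxcr3, the cytokine Ifng, its receptor chains Ifngr1 and Ifngr2, the interferon-induced transcription factors Irf1 and Irf8, and the feedback inhibitor Socs1. The genes were chosen by symbol, and each was read from the probe set with a single gene symbol that had the highest mean over the 12 arrays. They are 10 of 22180 genes named on the array, and all 10 were among the 16635 genes left after the dimmest 25% were dropped. All mice of all groups had received the carcinogen azoxymethane and dextran sulfate, which inflames the colon, to raise colorectal tumors. The 4 groups were Stat3dm stroma, Stat3dm tumor, Stat3wt stroma and Stat3wt tumor, with 3 samples each. Stat3dm mice carried a conditional deletion of the transcription factor STAT3 in myeloid cells, Stat3wt mice were wild type, and the labels name no Cre driver, strain, age or sex. Stroma and tumor were cut from paraffin-embedded tumors by laser-capture microdissection, by criteria that the labels do not state, and each sample pooled 2 tumors of 1 mouse. The stated purpose was to find stromal changes that depend on myeloid STAT3.

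Interferon-gamma is secreted mainly by activated T cells and natural killer (NK) cells. It binds the receptor chains IFNGR1 and IFNGR2, which signal through the kinases JAK1 and JAK2. The signal reaches GAS elements in promoters such as that of Irf1, and IRF1 in turn acts on interferon-stimulated response elements (ISRE). CXCL9, CXCL10 and CXCL11 are made by macrophages, dendritic cells, endothelium and epithelium under interferon-gamma, and they attract T and NK cells that carry CXCR3. SOCS1 binds the JAK kinases and ends the signal.

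Promoter sequences are shown for the genes on which the results turn, to set beside their levels which of them carry such elements. Each is the 250 bases before the transcription start, 5′ to 3′ on the strand of the gene, from RefSeq on build GRCm38.p6. ISRE cores (GAAANNGAAA) and GAS elements (TTCNNNGAA) are in capitals, searched on both strands. The windows are chr5:92328080-92328329 for Cxcl9 (minus strand), chr5:92348890-92349139 for Cxcl10 (minus), chr11:53769764-53770013 for Irf1 (plus), chr8:120736108-120736357 for Irf8 (plus) and chr16:10785537-10785786 for Socs1 (minus). Irf1 and Irf8 have 2 listed starts, and the window of the first is shown.
Cxcl9: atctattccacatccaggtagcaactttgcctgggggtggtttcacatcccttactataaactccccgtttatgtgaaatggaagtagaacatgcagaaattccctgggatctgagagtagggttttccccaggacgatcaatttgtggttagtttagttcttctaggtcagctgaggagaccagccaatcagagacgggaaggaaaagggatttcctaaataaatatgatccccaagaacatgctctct
Cxcl10: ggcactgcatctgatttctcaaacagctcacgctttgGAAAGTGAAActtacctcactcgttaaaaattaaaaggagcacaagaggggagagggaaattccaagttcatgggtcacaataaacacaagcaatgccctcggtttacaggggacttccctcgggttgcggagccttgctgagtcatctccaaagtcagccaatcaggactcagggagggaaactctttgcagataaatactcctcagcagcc
Irf1: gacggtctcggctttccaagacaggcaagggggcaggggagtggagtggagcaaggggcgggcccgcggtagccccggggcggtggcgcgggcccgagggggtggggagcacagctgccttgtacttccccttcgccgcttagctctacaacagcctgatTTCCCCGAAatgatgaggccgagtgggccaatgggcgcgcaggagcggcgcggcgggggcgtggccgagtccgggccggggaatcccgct
Irf8: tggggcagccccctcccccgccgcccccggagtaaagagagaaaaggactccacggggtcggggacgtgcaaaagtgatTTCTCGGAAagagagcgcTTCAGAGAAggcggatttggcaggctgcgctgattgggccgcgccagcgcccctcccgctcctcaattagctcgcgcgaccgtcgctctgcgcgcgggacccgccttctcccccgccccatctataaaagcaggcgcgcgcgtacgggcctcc
Socs1: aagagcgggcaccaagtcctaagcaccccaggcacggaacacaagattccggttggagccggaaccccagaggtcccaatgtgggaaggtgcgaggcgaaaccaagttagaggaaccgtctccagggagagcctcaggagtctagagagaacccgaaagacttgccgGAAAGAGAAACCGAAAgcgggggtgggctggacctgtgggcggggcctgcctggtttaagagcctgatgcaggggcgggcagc

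The Cxcl10 window held 1 ISRE core, starting 213 bases before the start, and the Socs1 window held a pair of overlapping ISRE cores starting 83 and 77 bases before the start. The Irf1 window held a GAS element 90 bases before the start and the Irf8 window held GAS elements at 171 and 153 bases. The Cxcl9 window held no exact match to either motif. Elements that depart from these exact patterns were not searched for, so a window without a match may still hold one. Among the other genes, the Ifng window had a GAS element starting 249 bases before the start. Sites of NF-kB (the kB consensus) were found at 159, 104 and 103 bases for Cxcl10, where the last 2 overlap, at 75 for Ifngr2 and at 13 for Irf1. Matches to different motifs did not overlap. Of the 9 genes with an entry in the promoter table, 2 held an ISRE core, 3 a GAS element and 3 a kB site in the window of at least 1 start. Counted by promoter, as the shares below are, these were 2, 3 and 3 of the 11 promoters of these genes. The shares among all 32851 promoters were 2.98%, 7.02% and 7.25%. Cxcl11 was not matched in that table. Cxcl9, Art3, Cxcl10 and Cxcl11 follow each other on chromosome 5 in the RefSeq gene table, which lists Cxcl11 as a transcribed pseudogene.

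Signals are given as log2 values of each probe set, which can be compared between samples but not between genes. A log2 difference of 1 is a 2-fold difference. Array medians lay between 4.20 and 4.43 and the SD of an array between 1.60 and 1.91, and arrays of 1 group correlated at 0.881 to 0.967. The labels were checked against cell markers: all 12 tested epithelial markers were lower in stroma than in tumor in both genotypes, with a median log2 difference of -0.92 in Stat3dm and -1.02 in Stat3wt, and 9 of 10 fibroblast markers were higher, with medians of 0.57 and 0.61. The mean epithelial marker level of Stat3dm stroma 1 was 8.58, inside the range of the Stat3dm tumor samples (8.52 to 9.18), while the other Stat3dm stroma samples lay below that range. The Stat3 probe set read 7.35, 7.32 and 7.40 in Stat3dm stroma and 6.72, 7.33 and 8.02 in Stat3wt stroma, a log2 difference of 0.00 with an interval of -0.68 to 0.69. In tumor it read 7.08, 7.28 and 7.97 in Stat3dm and 7.48, 7.43 and 8.22 in Stat3wt (-0.27, interval -0.95 to 0.42). The deletion is limited to myeloid cells and the position of the probes relative to the deleted part is not given, so this probe set does not check the genotype.

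In stroma, 9 of the 10 genes had a higher mean in Stat3dm than in Stat3wt. The differences of Cxcl9 (3.35-fold) and Irf1 (1.87-fold) had the smallest p-values of the 10. The median log2 difference of the 10 genes was 0.48, against -0.016 over all genes tested, of which 47.2% lay above 0. The Stat3dm and Stat3wt samples did not overlap for 5 of the 10 genes (Cxcl9, Cxcr3, Ifng, Irf1 and Irf8), all higher in Stat3dm, and such separation upwards was found for 5.13% of all genes. Separation downwards was found for 5.62% of all genes and for 0 of the 10. An unadjusted p under 0.05 with a higher value in Stat3dm was reached by 4 of the 10 (Cxcl9, Cxcl10, Cxcr3 and Irf1), against 3.14% of all genes, and a lower value by 0 of the 10, against 1.94%. Without Stat3wt stroma 2 it was 2 of the 10. After Benjamini-Hochberg adjustment over 16635 genes in limma, 0 of the 10 and 0% of all genes passed 0.05. The smallest adjusted p of any gene was 0.0637, and 844 genes had an unadjusted p under 0.05.

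In tumor, 9 of the 10 genes again had a higher mean in Stat3dm, and Ifngr2 was the exception. The median log2 difference was 0.36, against -0.0094 over all genes, of which 48.7% lay above 0. Groups did not overlap for 4 of the 10 (Cxcl9, Cxcl10, Irf8 and Socs1), all higher in Stat3dm, against 4.05% of all genes, and 0 separated downwards, against 5.46%. At an unadjusted p under 0.05, 3 of the 10 were higher (Cxcl9, Irf8 and Socs1), against 1.76% of all genes, and 1 was lower (Ifngr2), against 4.5%. After adjustment 0 of the 10 passed and 3 genes of the whole array did (0.018%). With the sample number as a block 89 genes passed in tumor, still with 0 of the 10, and the smallest adjusted p among them was 0.0978 for Cxcl9. Before adjustment the block had 4 of the 10 higher (Cxcl9, Cxcl10, Irf8 and Socs1), against 3.31% of all genes. Without Stat3wt tumor 3 only 7 of the 10 genes lay above 0, with 1 at an unadjusted p under 0.05, and without Stat3dm tumor 1 there was also 1.

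Cxcl9 and Irf8 were the 2 genes whose samples separated upwards in both tissues, as did 102 genes in all (0.613%). A different number of cells of a type and a different amount of RNA per cell cannot be told apart in samples of this kind.

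**Figure D1:**
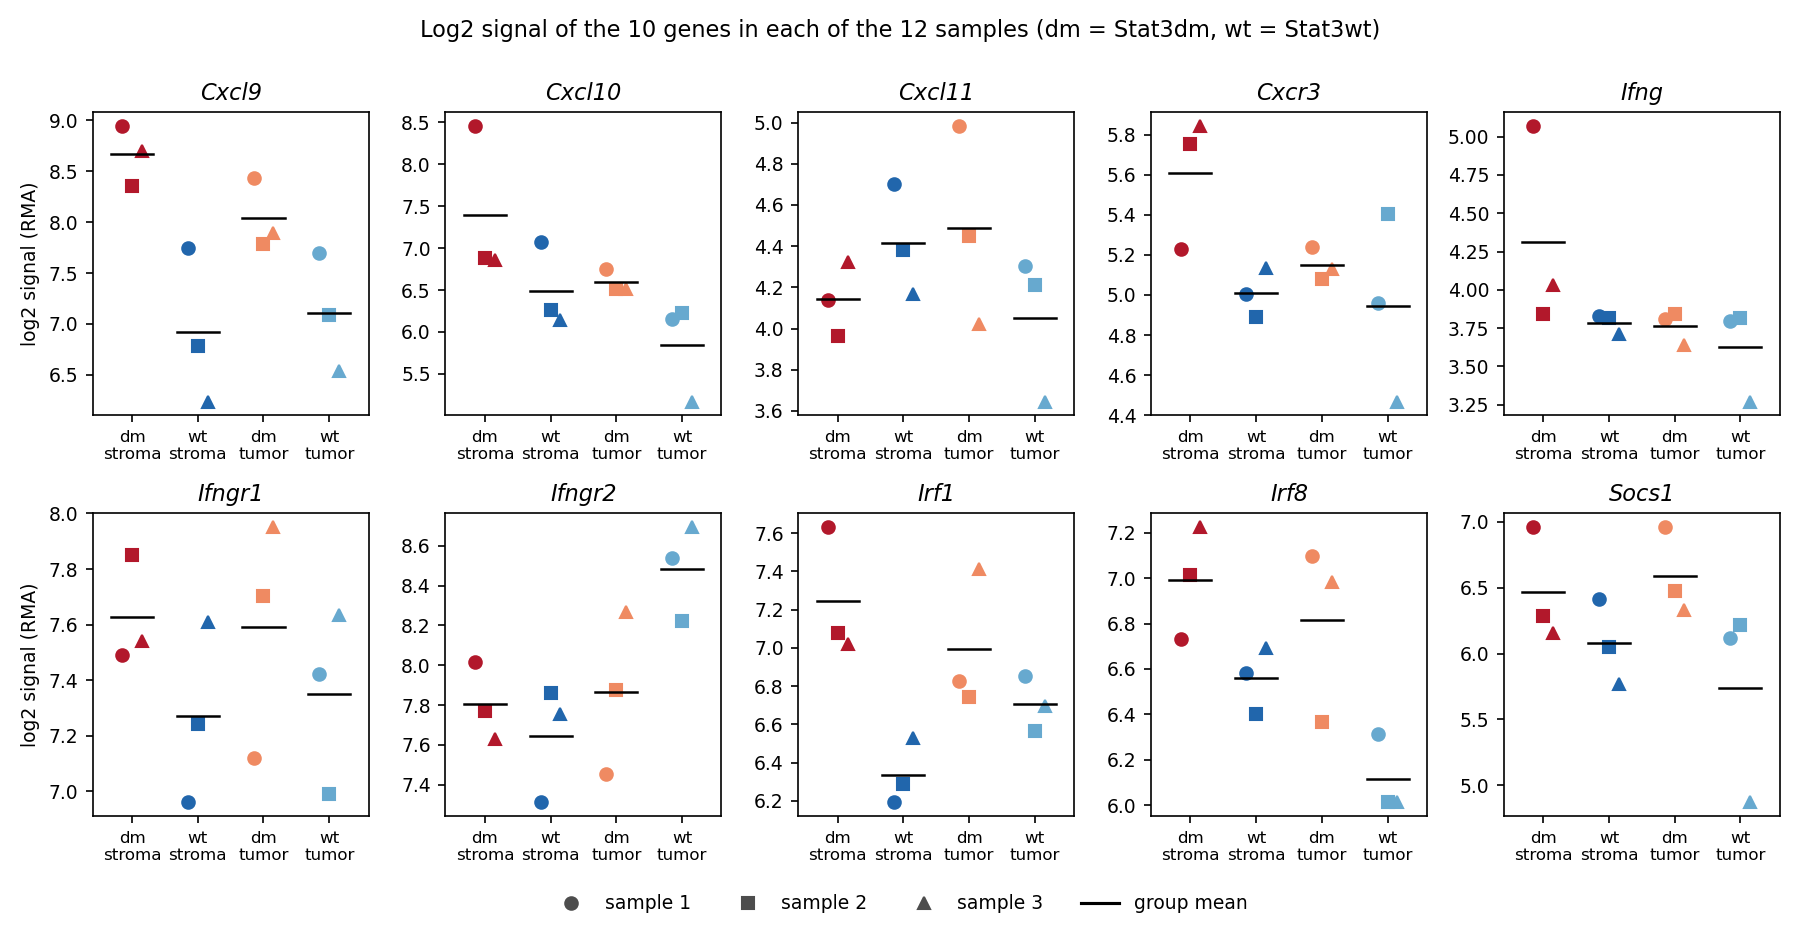
Log2 signal (RMA, vertical axis) of each of the 10 genes in every sample, by group, with points for samples 1 to 3 and a bar for the group mean. All Stat3dm stroma samples of Cxcl9 lie between 8.36 and 8.95, above the Stat3wt stroma samples (6.24 to 7.75), and Cxcl10 and Ifng have their highest value in Stat3dm stroma 1.

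Cxcl9, the ligand induced most selectively by interferon-gamma, had log2 signals of 8.95, 8.36 and 8.70 in the Stat3dm stroma samples, against 7.75, 6.78 and 6.24 in the Stat3wt stroma samples. Every Stat3dm sample was above every Stat3wt sample. The mean was 8.67 ± 0.30 in Stat3dm stroma and 6.92 ± 0.76 in Stat3wt stroma (SD, n = 3 each). The log2 difference was 1.75 ± 0.36 SE with a 95% interval of 0.97 to 2.52. It ranked 16th among all genes by p, with an unadjusted p of 0.000244 and adjusted p = 0.239 in limma. In tumor the samples read 8.44, 7.79 and 7.89 in Stat3dm and 7.70, 7.08 and 6.53 in Stat3wt. These groups did not overlap either, but Stat3dm tumor 2 lay close to Stat3wt tumor 1. The tumor difference was 0.93 ± 0.36 SE (1.91-fold, interval 0.16 to 1.71, adjusted p = 0.678). The order of the group means was Stat3dm stroma, Stat3dm tumor, Stat3wt tumor and Stat3wt stroma, and each of these neighbours overlapped in at least 1 sample except Stat3dm tumor and Stat3wt tumor.

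Cxcl10, which type I interferons also induce, read 8.46, 6.88 and 6.86 in Stat3dm stroma and 7.08, 6.26 and 6.14 in Stat3wt stroma. Stat3dm stroma 1 was far above the other samples, and the other Stat3dm samples lay below Stat3wt stroma 1. The log2 difference was 0.90 ± 0.40 SE (1.87-fold, unadjusted p = 0.0402, adjusted p = 0.964 in limma), and it was 0.37 without Stat3dm stroma 1. In tumor Cxcl10 read 6.75, 6.51 and 6.52 in Stat3dm and 6.15, 6.22 and 5.17 in Stat3wt. The tumor groups did not overlap, and Stat3wt tumor 3 was the lowest sample of all 12. The tumor difference was 0.74 ± 0.40 SE (1.67-fold, adjusted p = 0.823), and 0.40 without Stat3wt tumor 3.

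Cxcl11, the third gene of the cluster and a listed pseudogene, was dim. Its 12 values ranged over 3.65 to 4.98, and 1 of them lay below the filter value of 3.65. It read 4.14, 3.97 and 4.32 in Stat3dm stroma and 4.70, 4.38 and 4.17 in Stat3wt stroma, overlapping groups with a log2 difference of -0.28 ± 0.26 SE (interval -0.83 to 0.28), which was -0.13 without Stat3wt stroma 1. In tumor it read 4.98, 4.45 and 4.02 in Stat3dm and 4.30, 4.21 and 3.65 in Stat3wt (0.43 ± 0.26 SE, interval -0.13 to 0.99). Both intervals held 0. Without Stat3dm tumor 1 the tumor difference was 0.18.

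Cxcr3, the receptor of these ligands on activated T and NK cells, read 5.23, 5.75 and 5.84 in Stat3dm stroma and 5.01, 4.89 and 5.14 in Stat3wt stroma. The groups did not overlap, although Stat3dm stroma 1 lay just above the highest Stat3wt sample. The log2 difference was 0.60 ± 0.24 SE (1.51-fold, unadjusted p = 0.0263, adjusted p = 0.893 in limma). In tumor Cxcr3 read 5.24, 5.08 and 5.13 in Stat3dm and 4.96, 5.40 and 4.47 in Stat3wt, with the Stat3dm samples inside the Stat3wt range. The tumor difference was 0.21 ± 0.24 SE, and -0.03 without Stat3wt tumor 3.

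Ifng, the cytokine itself, was close to the dim end of the array, with a mean over 12 samples of 3.87, which is 0.22 above the filter value, and 2 samples below that value. It read 5.07, 3.84 and 4.03 in Stat3dm stroma and 3.83, 3.82 and 3.71 in Stat3wt stroma. The groups did not overlap, but Stat3dm stroma 2 lay just above Stat3wt stroma 1, and Stat3dm stroma 1 was far above all other samples. The log2 difference of 0.53 ± 0.28 SE (1.44-fold, unadjusted p = 0.0764, adjusted p = 0.999 in limma) was 0.15 without that sample. In tumor the values were 3.81, 3.84 and 3.64 in Stat3dm and 3.79, 3.82 and 3.27 in Stat3wt, a difference of 0.13 ± 0.28 SE. Without Stat3wt tumor 3 it was -0.04.

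Ifngr1, the ligand-binding receptor chain, read 7.49, 7.85 and 7.54 in Stat3dm stroma and 6.96, 7.24 and 7.61 in Stat3wt stroma. The groups overlapped, with a log2 difference of 0.36 ± 0.26 SE (interval -0.19 to 0.90), which was 0.20 without Stat3wt stroma 1. In tumor it read 7.12, 7.70 and 7.95 in Stat3dm and 7.42, 6.99 and 7.63 in Stat3wt (0.24 ± 0.26 SE, and 0.06 without Stat3dm tumor 3). Ifngr2, the signal-transducing chain, read 8.02, 7.77 and 7.63 in Stat3dm stroma and 7.31, 7.86 and 7.76 in Stat3wt stroma, a difference of 0.16 ± 0.24 SE. In tumor it read 7.46, 7.87 and 8.27 in Stat3dm and 8.54, 8.22 and 8.70 in Stat3wt. Only Stat3dm tumor 3 reached the Stat3wt tumor range. The tumor difference was -0.62 ± 0.24 SE (1.54-fold lower in Stat3dm, unadjusted p = 0.0215, adjusted p = 0.684 in limma).

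Irf1, an early target of interferon-gamma whose promoter window carries the GAS element shown above, read 7.63, 7.08 and 7.02 in Stat3dm stroma and 6.19, 6.29 and 6.53 in Stat3wt stroma. All Stat3dm samples were above all Stat3wt samples. The log2 difference was 0.91 ± 0.23 SE (1.87-fold, interval 0.41 to 1.40), ranking 58th among all genes by p, with an unadjusted p of 0.00146 and adjusted p = 0.42. Without Stat3dm stroma 1, its highest sample, the difference was 0.71. In tumor Irf1 read 6.83, 6.74 and 7.41 in Stat3dm and 6.85, 6.57 and 6.70 in Stat3wt, overlapping groups with a difference of 0.29 ± 0.23 SE, which was 0.08 without Stat3dm tumor 3.

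Irf8, a factor of the myeloid and dendritic lineages that interferon-gamma also induces, read 6.73, 7.01 and 7.23 in Stat3dm stroma and 6.58, 6.40 and 6.69 in Stat3wt stroma. The groups did not overlap, with Stat3dm stroma 1 just above Stat3wt stroma 3, and the log2 difference was 0.43 ± 0.22 SE (1.35-fold, unadjusted p = 0.0739, adjusted p = 0.999). In tumor it read 7.10, 6.37 and 6.98 in Stat3dm and 6.31, 6.01 and 6.01 in Stat3wt, again without overlap. The tumor difference was 0.70 ± 0.22 SE (1.63-fold, unadjusted p = 0.00712, adjusted p = 0.504). A dimmer Irf8 probe set read 5.39, 6.17 and 5.66 in Stat3dm stroma and 5.61, 5.39 and 5.95 in Stat3wt stroma, which overlapped, and 6.03, 5.75 and 6.13 in Stat3dm tumor and 5.67, 5.20 and 5.30 in Stat3wt tumor, which did not. The mean over both probe sets gave a difference of 0.26 in stroma and 0.64 in tumor.

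Socs1, the JAK inhibitor whose window holds the pair of ISRE cores, read 6.96, 6.28 and 6.15 in Stat3dm stroma and 6.42, 6.05 and 5.77 in Stat3wt stroma. The groups overlapped, with a log2 difference of 0.39 ± 0.34 SE, and 0.14 without Stat3dm stroma 1. In tumor it read 6.96, 6.48 and 6.33 in Stat3dm and 6.12, 6.22 and 4.87 in Stat3wt, without overlap. The tumor difference was 0.86 ± 0.34 SE (1.81-fold, unadjusted p = 0.024, adjusted p = 0.7 in limma), and 0.42 without Stat3wt tumor 3.

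With array weights the tumor differences of Cxcl9, Cxcl10, Irf8 and Socs1 were 0.36, 0.43, 0.26 and 0.45. With the spread of each array as a covariate those of Cxcl9, Cxcl10 and Socs1 were 0.57, 0.37 and 0.46.

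**Figure D2:**
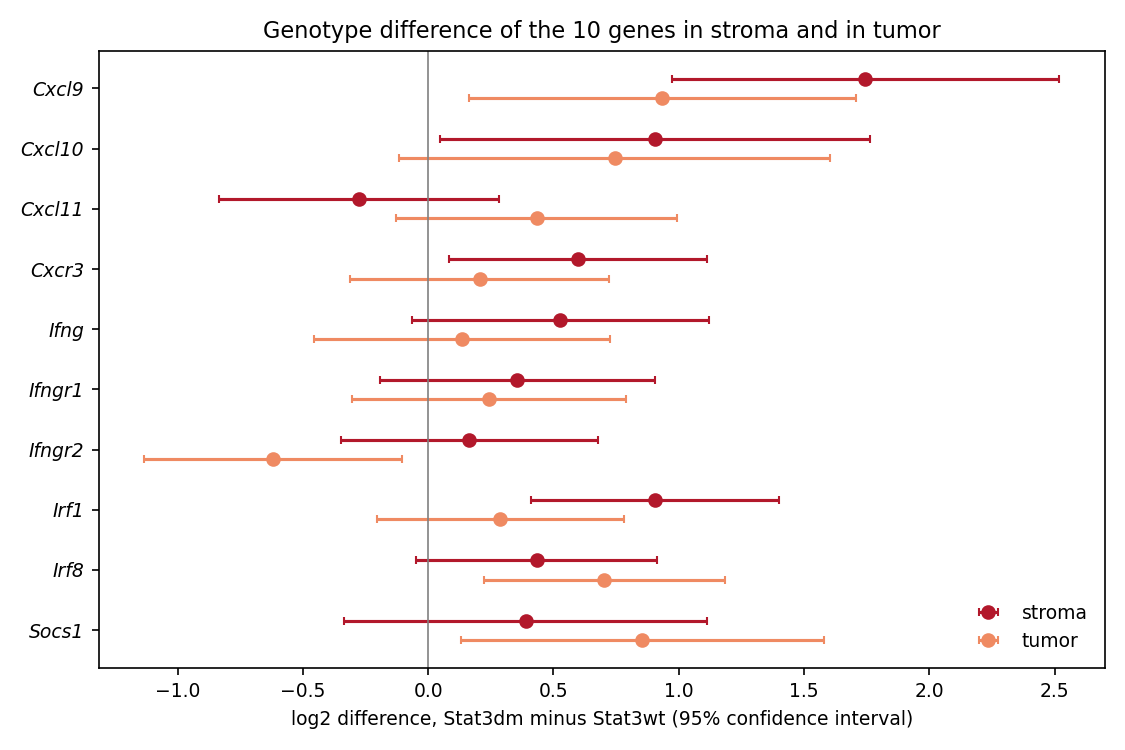
Log2 difference, Stat3dm minus Stat3wt (horizontal axis), of each gene in stroma and in tumor, with bars for the 95% confidence interval of the limma fit. The stroma interval of Cxcl9 runs from 0.97 to 2.52 and that of Irf1 from 0.41 to 1.40, while the tumor interval of Ifngr2 lies below 0.

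Whether the genotype difference itself differed between stroma and tumor was tested as an interaction. Of all genes 0% passed after adjustment in limma, with 401 genes (2.41%) at an unadjusted p under 0.05, 1.33% with a larger value in stroma and 1.08% with a smaller one. Among the 10 genes only Ifngr2 reached it, with a genotype difference larger in stroma than in tumor by 0.78 ± 0.34 SE (unadjusted p = 0.0365, adjusted p = 0.995). Cxcl9 had 0.81 ± 0.51 SE (unadjusted p = 0.134), Irf1 0.62 ± 0.33 SE (0.0792) and Cxcl11 -0.71 ± 0.37 SE (0.0759). The value of Cxcl9 was 0.47 without Stat3wt stroma 3, 1.22 without Stat3wt stroma 1 and 1.46 with array weights, and that of Cxcl11 was -0.46 without Stat3dm tumor 1, -0.45 with array weights and -0.42 with the array SD as a covariate. With the sample number as a block, Cxcl9 (unadjusted p = 0.0247) and Cxcl11 (0.0351) also came under 0.05 in limma. Both had adjusted p = 0.817 in that fit. A different genotype effect in the 2 tissues was thus not shown for any of the 10 genes.

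Stroma was also set against tumor within each genotype. In Stat3dm mice 0 of the 10 genes reached an unadjusted p under 0.05, against 9.68% of all genes (4.08% higher and 5.6% lower in stroma). Cxcl10 (0.80 ± 0.40 SE) and Ifng (0.55 ± 0.28 SE) were higher in every stroma sample than in every tumor sample, against 6.57% of all genes, and 0 of the 10 were lower in this way, against 7.16%. Without Stat3dm stroma 1 these differences were 0.27 and 0.17. After adjustment 0% of all genes passed in this comparison, and with the sample number as a block 86 genes did, 0 of the 10 among them. That block brought Cxcl9 (unadjusted p = 0.0155), Cxcl10 (0.0112) and Ifng (0.0351) under 0.05 before adjustment, 3 of the 10, against 5.69% of all genes with a higher value in stroma. In Stat3wt mice Ifngr2 had a log2 difference of -0.84 ± 0.24 SE (1.79-fold lower in stroma, unadjusted p = 0.00333, adjusted p = 0.205), with 7.31 to 7.86 in stroma and 8.22 to 8.70 in tumor. It was -0.49 with quantile normalization and -0.47 with the array SD as a covariate. It was the 1 gene of the 10 at an unadjusted p under 0.05, which 16.7% of all genes reached, 11.6% in that direction. Irf1 was lower in every Stat3wt stroma sample than in every Stat3wt tumor sample (-0.37 ± 0.23 SE), as were Ifngr2 and 15% of all genes. Irf8 was higher in every one (0.44 ± 0.22 SE), as were 8.88%. The difference of Irf1 was -0.097 with quantile normalization and -0.17 with the SD covariate, and that of Irf8 was 0.67 with quantile normalization and 0.26 with array weights. After adjustment 0% of all genes passed in Stat3wt. With the sample number as a block, Cxcl10 (unadjusted p = 0.0352) and Irf8 (0.0481) also came under 0.05 in limma. Their adjusted p in that fit was 0.156 and 0.177.

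**Figure D3:**
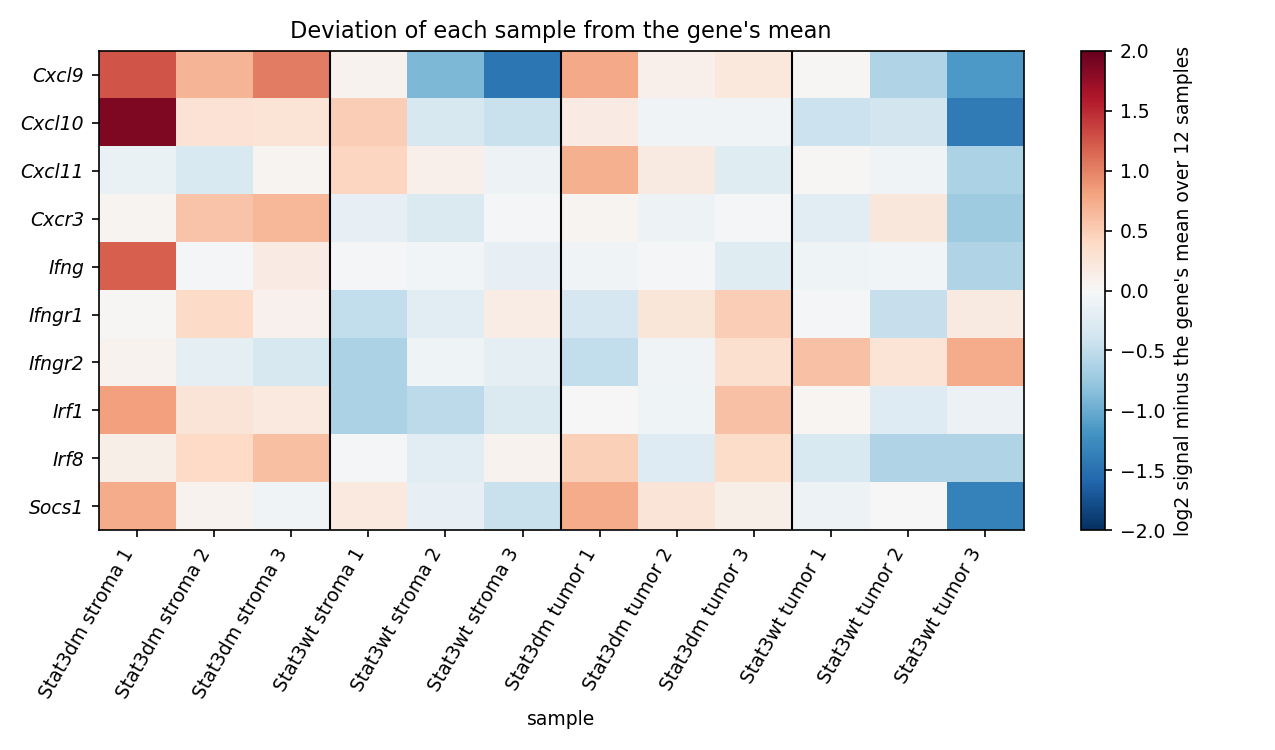
Log2 signal of each gene (rows) in each sample (columns) minus its mean over the 12 samples, on a color scale from -2 to 2 with red for above the mean and blue for below. Stat3dm stroma 1 is far above the mean for Cxcl9, Cxcl10 and Ifng, and Stat3wt tumor 3 is below the mean for every gene except Ifngr1 and Ifngr2.

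Individual samples stood apart across several of these genes. Stat3dm stroma 1 had the highest value of all 12 samples for Cxcl9, Cxcl10, Ifng and Irf1. The same sample had a mean neutrophil marker level of 7.58, against 5.90 and 5.65 in the other Stat3dm stroma samples and 5.47 to 6.01 in Stat3wt stroma. Its mean fibroblast marker level of 7.10 was the lowest of the stroma samples. Without this sample 9 of the 10 genes still lay above 0 in stroma, 4 at an unadjusted p under 0.05, with a median of 0.40. Stat3wt tumor 3 had the lowest value of all samples for Cxcl10, Cxcl11, Cxcr3, Ifng and Socs1, and it was the array of widest spread (SD 1.91). The part of these marker and array differences in the results was not tested.

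Cxcl9 and Cxcl10 had a Pearson r of 0.78 over the 12 samples, and 0.75 without Stat3dm stroma 1. Cxcl10 and Ifng had 0.92, and 0.82 without that sample. Irf1 and Ifng had 0.54, and -0.02 without it. Cxcl9 and Socs1 had 0.74, Cxcl9 and Irf1 0.66, Cxcl9 and Irf8 0.66 and Cxcl9 and Ifngr2 -0.34. These values describe samples that share the 4 groups and the spread of their arrays.

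Other targets of interferon-gamma were read from a list of 26 names, of which 22 had a probe set with a single symbol and 21 were tested. In stroma 21 of 21 lay above 0. Their median log2 difference was 0.60, against -0.016 over all genes. Of these 13 had an unadjusted p under 0.05, all with a higher value in Stat3dm, against 3.14% of all genes, and 0 passed after adjustment. The groups separated upwards for 12, against 5.13% of all genes. Without Stat3dm stroma 1 the counts were 19 above 0 and 8 at an unadjusted p under 0.05, with a median of 0.55. Psmb9, an immunoproteasome subunit that cuts peptides for class I presentation, read 7.49, 7.48 and 7.68 in Stat3dm stroma and 6.70, 6.79 and 6.63 in Stat3wt stroma (0.84 ± 0.19 SE, adjusted p = 0.304 in limma). Its samples varied little within each group and did not overlap. Gbp5, a guanylate-binding protein of cell-intrinsic defence, read 6.39, 5.65 and 5.54 in Stat3dm stroma and 4.75, 4.63 and 4.68 in Stat3wt stroma (1.17 ± 0.27 SE, adjusted p = 0.329). The related Gbp7 had a difference of 1.10 ± 0.30 SE and Gbp3 0.82 ± 0.23 SE, both without overlap. Ciita, the transactivator of class II genes, had 0.69 ± 0.24 SE.

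In tumor 19 of the 21 targets lay above 0, with a median of 0.49, against -0.0094 over all genes, and 9 were higher at an unadjusted p under 0.05, against 1.76% of all genes. Without Stat3dm tumor 3 there were 16 above 0 and 6 at that p. Psmb9 read 7.72, 7.41 and 7.82 in Stat3dm tumor and 7.09, 6.98 and 6.67 in Stat3wt tumor (0.74 ± 0.19 SE, adjusted p = 0.294). Ciita had a difference of 0.81 ± 0.24 SE, without overlap. Gbp7 had 0.03 ± 0.30 SE in tumor.

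The signalling steps between the receptor and these targets were read from a separate list. Of 10 tested genes of interferon-gamma receptor signalling, 7 lay above 0 in stroma (median log2 difference 0.25), and 2 were higher at an unadjusted p under 0.05, a share to set against the 3.14% of all genes, as for every list in stroma. These were the phosphatase Ptpn6 (0.75 ± 0.26 SE) and Stat2, a factor of type I interferon signalling (0.53 ± 0.23 SE). In tumor 1 of the 10 lay above 0, with a median of -0.22. Of 15 genes that lead to Ifng, such as interleukin-12 and interleukin-18 with their receptors, 11 lay above 0 in stroma with a median of 0.22, and 1 was higher at an unadjusted p under 0.05, the interleukin-18 receptor chain Il18r1 (0.59 ± 0.22 SE), a share near the background. In tumor 12 of 15 lay above 0, with a median of 0.20. Of 5 other interferon regulatory factors 4 lay above 0 in stroma, with Irf7, an amplifier of type I interferon, at 1.04 ± 0.27 SE (unadjusted p = 0.00158, adjusted p = 0.43). Irf7 read 7.40, 6.85 and 6.10 in Stat3dm stroma and 5.73, 5.75 and 5.76 in Stat3wt stroma, without overlap. In tumor it had 0.10 ± 0.27 SE, and 2 of the 5 factors lay above 0. Of the 7 other SOCS genes 3 lay above 0 in stroma and 2 in tumor, 0 with an unadjusted p under 0.05 in either. Socs3, an inhibitor of STAT3 signalling that STAT3 itself induces, had 0.35 ± 0.26 SE in stroma and 0.32 ± 0.26 SE in tumor, which were 0.077 without Stat3dm stroma 1 and 0.079 without Stat3wt tumor 3. Of 14 type I interferon genes and targets, 13 lay above 0 in stroma with a median of 0.49 and 6 at an unadjusted p under 0.05, among them the RNA sensor Ifih1 (0.70 ± 0.25 SE) and Ifit1 (0.76 ± 0.30 SE). Without Stat3dm stroma 1 the median was 0.35, with 3 at that p, and without Stat3wt stroma 1 there were also 3. In tumor 8 of 14 lay above 0, with a median of 0.13. Many genes of both target lists are known to respond to both interferon types.

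**Figure D4:**
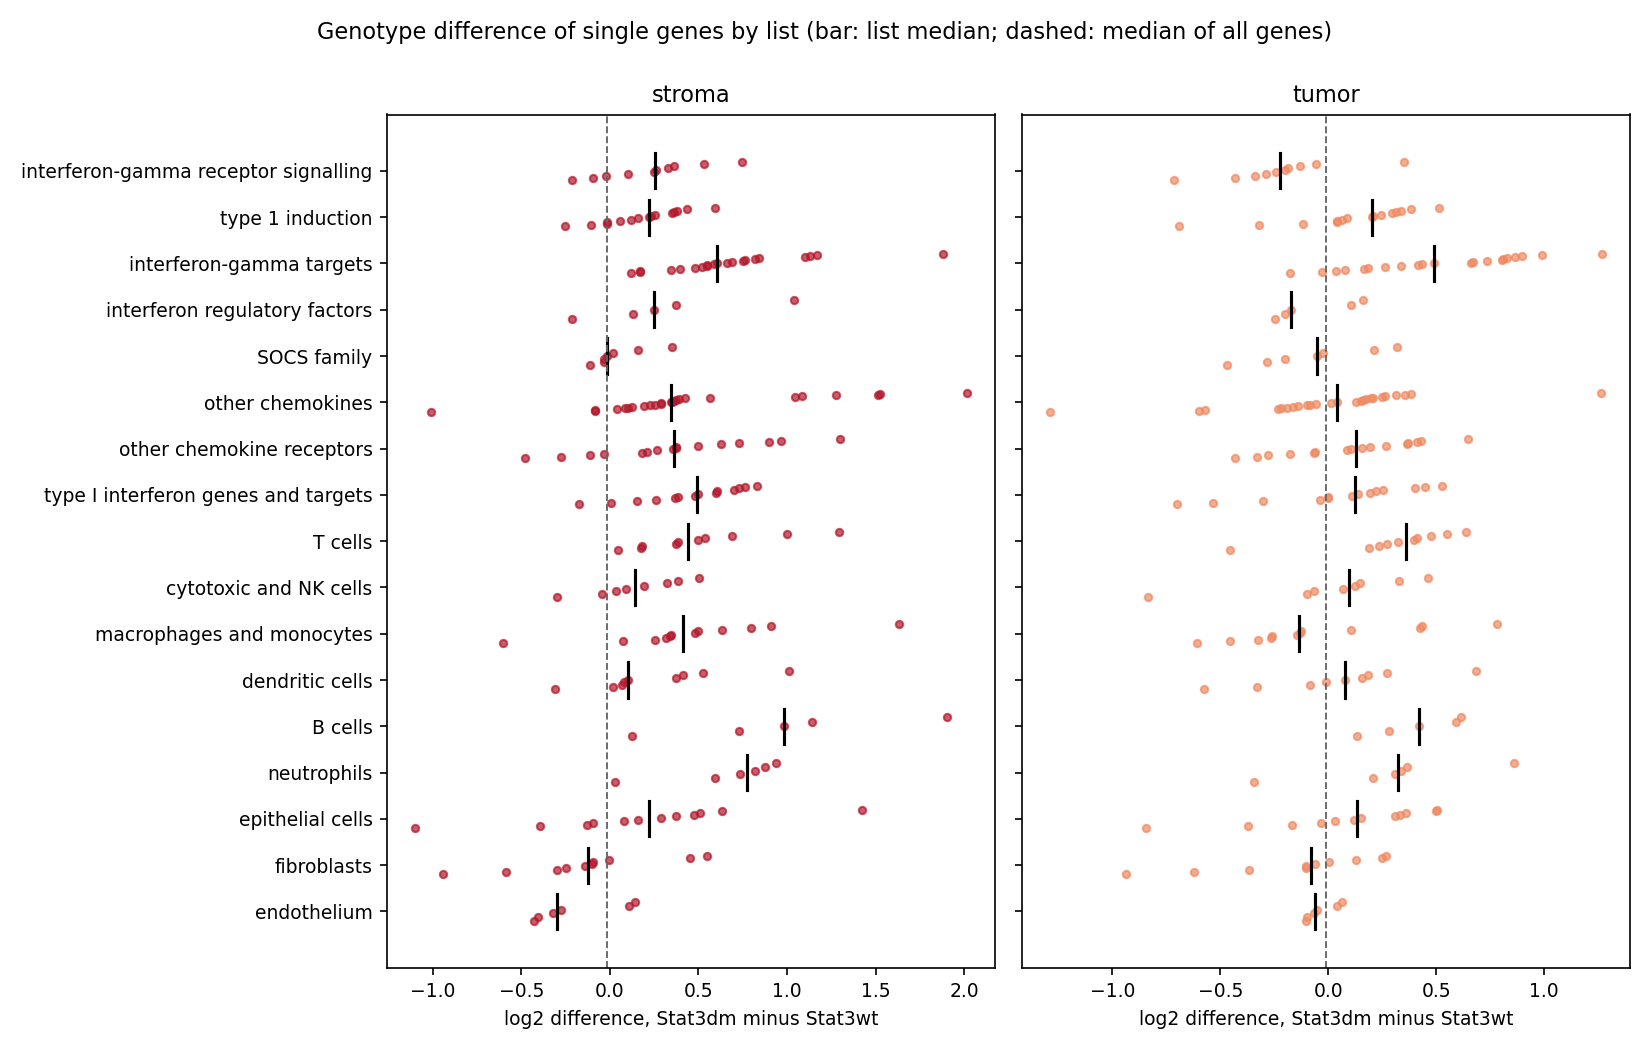
Log2 difference, Stat3dm minus Stat3wt (horizontal axis), of the tested genes of each list in stroma (left) and tumor (right), with a black bar for the list median and a dashed line for the median of all genes. All 21 interferon-gamma targets lie above 0 in stroma, and 19 of 21 in tumor.

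Among 25 other chemokines, 22 lay above 0 in stroma with a median of 0.35, with 3 higher and 1 lower at an unadjusted p under 0.05, against 3.14% higher and 1.94% lower over all genes. Ccl5, a T cell attractant that T cells themselves secrete, read 9.44, 8.52 and 8.39 in Stat3dm stroma and 6.77, 6.87 and 6.67 in Stat3wt stroma. Its groups were the furthest apart of the chemokines, with a difference of 2.02 ± 0.32 SE (4.04-fold, unadjusted p = 1.88e-05, adjusted p = 0.0956 in limma), the second smallest p of all genes. In tumor Ccl5 read 7.30, 6.78 and 6.44 in Stat3dm and 6.15, 5.57 and 5.01 in Stat3wt, again without overlap (1.26 ± 0.32 SE, adjusted p = 0.294). Cxcl13, the B cell attractant, had 1.28 ± 0.38 SE in stroma with overlapping groups. Ccl4, made by macrophages and T cells, had 1.53 ± 0.55 SE with 8.65, 6.60 and 5.37 in Stat3dm stroma and 5.61, 5.22 and 5.21 in Stat3wt stroma. The groups of Ccl4 overlapped, and its difference was 0.64 without Stat3dm stroma 1. Cxcl14, an epithelial and stromal chemokine, was the one with a lower value at that p, at -1.01 ± 0.39 SE in stroma and -1.29 ± 0.39 SE in tumor. Without Stat3wt stroma 3 its stroma difference was -0.50. In tumor 14 of the 25 chemokines lay above 0, with a median of 0.04.

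Of 16 other chemokine receptors 12 lay above 0 in stroma, with a median of 0.36 and 5 at an unadjusted p under 0.05. Cxcr6, which marks resident and effector T cells, read 5.19, 6.04 and 5.85 in Stat3dm stroma and 3.80, 4.05 and 5.33 in Stat3wt stroma. Only Stat3wt stroma 3 reached the Stat3dm range, and the difference was 2.46-fold (adjusted p = 0.546). Cxcr4 had 0.97 ± 0.23 SE, the B cell receptor of CXCL13, Cxcr5, 0.90 ± 0.22 SE, and the monocyte receptor Ccr2 0.73 ± 0.22 SE, all without overlap. In tumor 10 of 16 receptors lay above 0, with a median of 0.13.

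Markers of the cells that make or answer these signals were read beside them. T cell markers lay above 0 in stroma for 10 of 10 genes, with a median of 0.44 and 4 at an unadjusted p under 0.05. Their mean level was 5.60 to 6.30 in Stat3dm stroma and 5.31 to 5.59 in Stat3wt stroma, groups that lay close but did not overlap. Cd8a, the coreceptor of cytotoxic T cells, had 0.50 ± 0.21 SE in stroma and 0.55 ± 0.21 SE in tumor, without overlap in either, and the adaptor Lat had 1.29 ± 0.29 SE in stroma. The smallest stroma differences of the T cell markers were those of Zap70 (0.05), Cd4 (0.17) and Cd8b1 (0.18). Of 8 cytotoxic and NK markers 6 lay above 0, with a median of 0.14, among them the NK receptor Ncr1 at 0.51 ± 0.19 SE, while the perforin gene Prf1 had -0.30 ± 0.18 SE. Their mean level was 4.52 to 4.74 in Stat3dm stroma and 4.29 to 4.63 in Stat3wt stroma. Gzmb, Fasl, Klrd1 and Klrk1 were on the same list but fell below the filter and were not tested. B cell markers lay above 0 for 5 of 5 genes, with a median of 0.98 and 4 at an unadjusted p under 0.05, and their mean level was 5.23 to 6.22 in Stat3dm stroma and 4.83 to 4.95 in Stat3wt stroma. Macrophage and monocyte markers lay above 0 for 11 of 12 genes, with a median of 0.41, which was 0.02 without Stat3wt stroma 1 and 0.83 without Stat3wt stroma 3, and their mean level was 6.66 to 6.91 in Stat3dm stroma and 5.66 to 7.07 in Stat3wt stroma. Dendritic cell markers lay above 0 for 8 of 9, with a median of 0.10 and mean levels of 5.83 to 6.43 in Stat3dm stroma and 5.73 to 5.89 in Stat3wt stroma. Neutrophil markers lay above 0 for 6 of 6, with a median of 0.78, which was -0.02 without Stat3dm stroma 1. Epithelial markers lay above 0 for 8 of 12 (median 0.22), fibroblast markers for 2 of 10 (-0.12) and endothelial markers for 2 of 6 (-0.30). In tumor T cell markers lay above 0 for 9 of 10 (median 0.36), B cell markers for 5 of 5 (0.42) and macrophage markers for 4 of 12 (-0.14). Cytotoxic and NK markers lay above 0 there for 5 of 8 (0.10). The T cell marker below 0 was Zap70 at -0.45, with all Stat3dm tumor samples below all Stat3wt tumor samples. At an unadjusted p under 0.05 in limma, 3 T cell markers were higher and 1 (Zap70) was lower in tumor. Of the cytotoxic and NK markers 0 were higher and 1 was lower at that p. The shares of all genes were 1.76% and 4.5%. After adjustment 0 genes of any of these lists passed in either tissue, and the part of these markers in the results above was not tested.

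The genes whose pattern over the 12 samples was most like that of 4 of the 10 were taken by Pearson r among all genes tested. For Cxcl9 these were Ly6c2 (0.90), Ldha (0.88), Oxld1 (0.87), 4921536K21Rik (0.84) and Slc6a20a (0.83). Ly6c2, a surface protein of inflammatory monocytes, read 6.88, 5.85 and 6.92 in Stat3dm stroma and 5.12, 4.76 and 4.87 in Stat3wt stroma (1.63 ± 0.32 SE, adjusted p = 0.229). Its stroma groups did not overlap. The genes named here were picked by r over the same samples, so their genotype differences follow in part from that choice. For Cxcl10 they were Cyp4b1 (0.97), Cd274 (0.95), Mmp3 (0.95), Gm5099 (0.94) and Ripor2 (0.94), which were 0.93, 0.88, 0.88, 0.89 and 0.85 without Stat3dm stroma 1. Cd274 encodes PD-L1, the ligand of an inhibitory T cell receptor, and its difference in stroma was 1.13 ± 0.36 SE (adjusted p = 0.648), and 0.63 without Stat3dm stroma 1. For Irf1 they were Sema4a (0.93), Rnf19b (0.92), Tnfrsf1b (0.92), Trafd1 (0.91) and Tnfaip3 (0.90). For Ifng they were Cd274 (0.94), Nr5a2 (0.94), Slit2 (0.93), Clec4e (0.93) and G0s2 (0.92). Without Stat3dm stroma 1 the last 5 were 0.79, 0.78, 0.79, 0.57 and 0.67. Among 22179 genes by their r with Cxcl9, Cxcl10 ranked 70th, Socs1 134th, Irf1 443rd, Irf8 460th, Ifng 612th, Cxcr3 912th, Cxcl11 6169th, Ifngr1 10654th and Ifngr2 17484th.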

How the data were processed

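RNA of 12 laser-captured, paraffin-embedded samples was amplified from 50 ng, biotin-labelled and hybridised to single-colour Affymetrix arrays, per the labels' protocols. Per the submitters' processing notes, the authors used RMA and Affymetrix Expression Console 1.3.1, and the 41345 probe sets carry the log2 values they deposited, taken unchanged. RMA in general summarises probes after background correction and quantile normalization, and compresses differences of dim probe sets. The labels name no annotation build.

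The platform annotation gave 23521 probe sets 1 symbol and 1814 several, and 16010 were not listed. Of 22180 genes, 1082 had several probe sets and were read from the one of highest mean. The 25% of genes below a mean of 3.65 were dropped. The other 16635 entered a limma 3.58.1 model in R 4.3.3 that estimated 4 group means from 3 samples each, and p-values were two-sided and adjusted (Benjamini-Hochberg) within each of 5 contrasts at 0.05. All adjusted p-values are from this fit unless another is named. The number of arrays limits the precision. Each p-value sets a difference against the spread between these samples within groups, pooled over the 4 groups and moderated across genes.

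The 10 genes, the 17 lists and the tests were chosen with earlier results of these data known. Of 224 list names 208 genes had a probe set and 189 were tested, with Cd244 matched by synonym to Cd244a. Beside the 10 genes and Stat3, the rule for named genes takes from each list up to 4 genes of smallest p in stroma and 2 in tumor, and the 5 genes most correlated with Cxcl9, Cxcl10, Irf1 and Ifng.

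Samples are numbered 1 to 3 in each group, and no label says that a number marks a shared mouse or batch. The deviations of same-numbered samples from their group means correlated above 0.1 in all 3 pairs between the tumor groups (0.317, 0.150 and 0.692) and between the Stat3dm tissues (0.123, 0.157 and 0.298), so these comparisons are also given with the number as a block. Alternatives were quantile normalization, no filter, the mean over probe sets, array weights, the array SD as a covariate, the number as a fixed block, genotype and number as a random block, and leaving out each sample. Counts of lists and differences of list genes without each sample were added after seeing the data. The fits were tested on simulated data. Promoters came from a RefSeq table on GRCm38.p6.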

Additional observations from a re-analysis of the deposited data

How the results depend on the processing

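The 10 genes' differences were recomputed under 19 alternatives in each of 5 comparisons. Of these values 905 kept their direction and their side of the threshold, 4 passed it where the reported value did not, and 41 turned direction. Many of the 905 could not have turned. Dropping the filter, the replicate blocks and leaving out a sample of a group outside the comparison do not move the difference itself. The mean over probe sets moves only that of Irf8. The cause was not tested in any case. There were 3 arrays a group, and Ifng and Cxcl11 were read close to the dim end of the array.

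The Stat3dm minus Stat3wt difference of Cxcl9 in stroma was 1.82 with array weights (adjusted p = 0.0263 in limma), 1.75 with the array SD as a covariate (adjusted p = 0.0382) and 1.75 with the sample number as a fixed replicate block (adjusted p = 0.0108). It ranged over 1.40 to 2.16 without each sample in turn. No label says that same-numbered samples of any groups share more than the number. Between these stroma groups their deviations correlated at 0.152, -0.040 and 0.113. Between the Stat3wt tissues they correlated at 0.439, -0.0041 and 0.512. Set against the 3 samples of another group, a sample correlated best with its own number in 28 of 36 comparisons. The main fit has no block for the number, and what same-numbered samples share was not tested. The stroma minus tumor difference of Ifngr2 in Stat3wt was -0.73 with array weights (adjusted p = 0.0274) and -0.47 with the SD covariate (adjusted p = 0.6). The replicate block changed no other call of the 10 genes. In Stat3dm against Stat3wt stroma it brought Ifng under 0.05 before adjustment (unadjusted p = 0.0429, adjusted p = 0.607 in limma).

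The number of all genes passing in Stat3dm against Stat3wt stroma, reported as 0, was 1 with quantile normalization, 45 with array weights, 13 with the SD covariate, 28 with the replicate block and 0 to 2 without each sample. In tumor, reported as 3, it was 304 with weights, 14 with the covariate, 89 with the replicate block and 0 to 7 without each sample. For the interaction, reported as 0, weights gave 3. For stroma against tumor in Stat3dm, reported as 0, it was 33 with quantile normalization, 612 with weights, 114 with the covariate, 86 with the fixed and 62 with the random replicate block, and 0 to 22 without each sample. In Stat3wt, reported as 0, it was 1020 with weights, 304 with the fixed and 5 with the random replicate block, and 0 to 8 without each sample. Weights ran from 0.288 (Stat3wt tumor 3) to 4.21 (Stat3dm tumor 2) and were estimated gene by gene, since the default estimate did not converge.

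Directions turned as follows. With quantile normalization the interaction of Ifngr1 was -0.088, the stroma minus tumor difference in Stat3dm was 0.071 for Ifngr2, and that in Stat3wt was 0.16 for Cxcl9 and 0.27 for Ifngr1. With array weights the interaction of Irf8 was 0.30, the stroma minus tumor difference of Ifngr1 in Stat3dm was -0.027, and that in Stat3wt was -0.062 for Cxcr3 and -0.023 for Socs1. With the mean over probe sets that of Irf8 in Stat3dm was -0.027. With the SD covariate the tumor genotype difference of Ifng was -0.036, the interaction of Ifngr1 -0.16, and the stroma minus tumor difference of Ifngr2 in Stat3dm 0.095. In Stat3wt that covariate gave -0.0079 for Cxcl10, -0.13 for Cxcl11, -0.077 for Cxcr3, -0.14 for Ifng, 0.40 for Ifngr1 and -0.35 for Socs1.

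Leaving out each sample in turn gave -0.0019 to 0.27 for the stroma genotype difference of Ifngr2. For the tumor genotype difference it gave -0.033 to 0.44 for Cxcr3 and -0.045 to 0.23 for Ifng. For the interaction it gave -0.37 to 0.50 for Cxcl10 and -0.12 to 0.29 for Ifngr1. For stroma minus tumor in Stat3dm it gave -0.20 to 0.21 for Ifngr1, -0.26 to 0.14 for Ifngr2, -0.050 to 0.31 for Irf8 and -0.37 to 0.061 for Socs1. In Stat3wt it gave -0.60 to 0.16 for Cxcl9, -0.17 to 0.30 for Cxcr3, -0.020 to 0.25 for Ifng, -0.26 to 0.077 for Ifngr1 and -0.091 to 0.58 for Socs1.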
